A study of Mus musculus with 7 samples.

Results

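BRG1 binding was compared between mouse Th1 and Th2 cells after the same short stimulation, using 3 of the 7 libraries of a chromatin immunoprecipitation and sequencing (ChIP-seq) series: 1 BRG1 library of stimulated Th1 cells, 1 of stimulated Th2 cells, and 1 input library as background. The compared units were 22094 regions out of 26506 in which BRG1 reads stood above the input in at least 1 of the 6 BRG1 libraries. A region was compared where the stimulated pair together held at least 10 reads, which left out 4412 regions. It was called higher in 1 cell type where reads per 1000000 distinct reads (RPM) differed at least 3-fold and the 95% exact interval of the ratio left out 1. The groups have 1 library each, so no difference has a replicate check. Every interval covers counting error only, and amplified reads are not independent molecules.

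Both cell types came from naive CD4+ T cells of Balb/C mice aged 4 to 6 weeks, with a purity of 95%. Both cultures received anti-CD3 at 1 µg/ml and anti-CD28 at 2 µg/ml, and IL-2 at 100 U/ml after 24 h, with expansion from day 3. The Th1 cultures also had IL-12 at 1 ng/ml and anti-IL-4 at 10 µg/ml, and the Th2 cultures IL-4 at 10 ng/ml and anti-IFNγ at 10 µg/ml. Stimulation, which bypasses the T cell receptor, was 1.5 h with 50 ng/ml PMA and 500 ng/ml ionomycin. The input was DNA of pooled CD4+ T helper cells without immunoprecipitation. Resting Th1 and Th2 cells (the same culture conditions without PMA and ionomycin), naive cells and stimulated Th17 cells, each with 1 BRG1 library, are given beside the pair. The labels of the culture do not say how many mice a library holds.

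BRG1 is the ATPase of SWI/SNF (BAF) complexes, which use ATP to slide or evict nucleosomes and so open promoters and enhancers to other factors. Th1 cells make IFNγ under T-bet and act against intracellular microbes, while Th2 cells make IL-4, IL-5 and IL-13 under GATA3 and act against helminths. Stimulation through calcium and protein kinase C activates NFAT, AP-1 and NF-κB, which both cell types share, so the pair compares the lineages under 1 stimulus. Regions are named by mm9 coordinates, since no mm9 gene annotation or sequence was used here. For the same reason the labelled cell types could not be checked against binding at their marker genes, and no region is assigned to a gene. In the RefSeq table of build GRCm38.p6, Ifng lies on chromosome 10, Gata3 on chromosome 2, and Il4, Il13, Rad50 and Il5 follow each other on chromosome 11.

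The stimulated Th1 library held 3917492 distinct reads and the stimulated Th2 library 4261900, after 11.4% and 11.8% of reads were dropped as repeats of a position and strand. The input held 3531867. The stimulated Th17 library was deeper, with 7892944 distinct reads. The resting libraries were shallower, with 1808000 distinct reads for Th1 and 1340208 for Th2, and 28.5% and 36.6% repeated reads. At equal depth, 11487 regions were found in stimulated Th1 and 10993 in stimulated Th2. The share of reads inside the 26506 regions was 12.6% for stimulated Th1, 11.7% for stimulated Th2 and 2.37% for the input.

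Few BRG1 regions were called different between stimulated Th1 and Th2 cells, and at the 3-fold cut more of the calls were for Th2. Of the 22094 regions, 20705 (93.7%) were called for neither cell type, 567 (2.57%) were higher in Th1 and 822 (3.72%) were higher in Th2. Each region had its own interval, with no correction for the number of regions compared. Counting error alone can thus give some of these calls, and how many was not tested. The median ratio of Th1 to Th2 over all regions was 1.09, and the central 90% of regions lay between 0.34 and 2.54. Dividing by that median, in place of using total distinct reads, gave 437 regions for Th1 and 1018 for Th2, so the Th1 share of the calls went from 40.8% to 30.0%. Which side was larger changed when both libraries were thinned to 1340208 reads, with 289 regions called for Th1 and 179 for Th2. The minimum of 10 reads was kept, so only 11903 regions were compared, and the cause of the change was not tested. In 10 kb bins that held no region the ratio was 0.975.

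The regions with the most reads had them in both cell types, and in some of them the input was high too. None of the 1687 regions with 100 or more reads in the pair was called for either cell type. Their ratios ran from 0.496 to 2.99 with a median of 1.14. At least 2-fold more Th1 reads stood in 20 of them and at least 2-fold more Th2 reads in 1. The region with the most reads, chrX:166434801-166436400, held 912 stimulated Th1 reads against 858 for Th2, a ratio of 1.16 (1.05 to 1.27), with 198 in the input. At chr1:46910201-46910800, where the input held 22 reads, Th1 had 382 reads and Th2 412, which is a ratio of 1.01 (0.875 to 1.16). At chr2:98506201-98507400, also among the regions with the most reads, the input held 136.8 RPM. That was above stimulated Th1 (109.5) and stimulated Th2 (100.7). Calls became more common as reads became fewer. With 50 to 99 reads, 16 of 4448 regions were called for Th1 and 20 for Th2. With 20 to 49 reads the counts were 225 and 320 of 10341, and with 10 to 19 reads they were 326 (5.8%) and 482 (8.58%) of 5618.

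**Figure D1:**
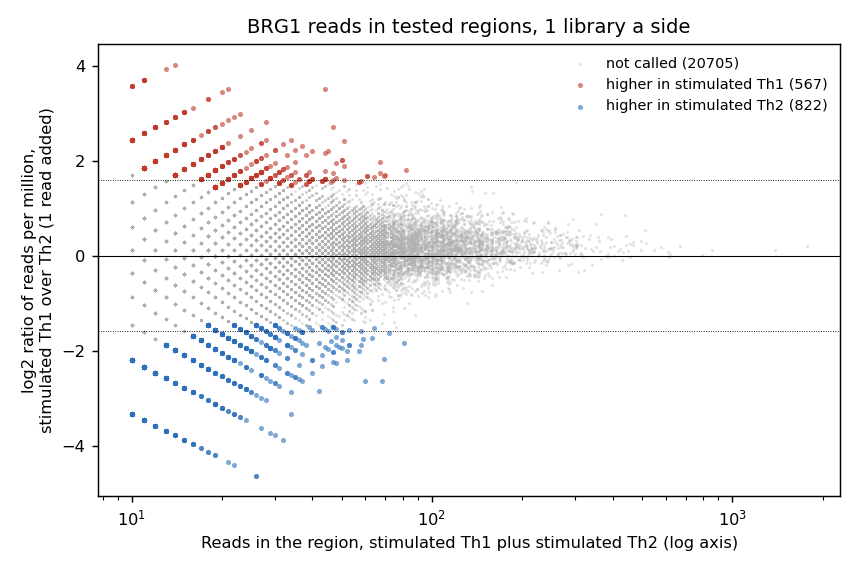
Each point is 1 of 22094 regions, with reads of the stimulated pair on a log x axis and the log2 ratio of Th1 to Th2 (1 read added to each side) on the y axis. The 567 regions higher in Th1 and the 822 higher in Th2 lie to the left, and no called region has 100 or more reads.

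Regions higher in Th1 had a median of 14 reads in stimulated Th1 (9 to 63) against 4 in stimulated Th2. Regions higher in Th2 had a median of 15 reads in stimulated Th2 (9 to 65) against 2 in stimulated Th1. Among regions with reads on both sides the median fold was 4.08 in the Th1 set and 5.06 in the Th2 set, and these folds chose the regions. The lower library held no read in 11 regions of the Th1 set and in 88 of the Th2 set. A difference of at least 5-fold, or a 0 on the lower side, was found in 196 regions of the Th1 set and 487 of the Th2 set. The called regions were narrow: 88.5% of the Th1 set and 84.8% of the Th2 set spanned a single 200 bp window, against 75.4% of all regions compared.

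The folds of regions picked for a difference at low counts shrank when measured on reads that had not picked them. Each library was split at random into 2 parts of 50% of its reads, and regions were called on the first part and measured on the second. The 286 regions called for Th1 had 4.36-fold more Th1 reads in the first part and 1.44-fold (1.36 to 1.53) in the second. The 245 called for Th2 had 5.59-fold more Th2 reads in the first part and 1.70-fold (1.58 to 1.82) in the second. In the second part 74.8% of the Th1 calls still had the higher Th1 RPM, against 57.5% of all regions compared. For the Th2 calls the share with more Th2 reads was 73.5%, against 42.5% of all. A 3-fold difference was met again by 42 of 286 (14.7%) and 82 of 245 (33.5%). Both parts come from 1 library, so this holds for read sampling alone.

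The 10 regions highest in stimulated Th1, ranked by the interval bound nearest 1, were led by chr17:74218801-74219000. It held 41 reads in stimulated Th1 against 3 in Th2, a difference of 14.9-fold (4.74 to 75.1). At rest the same 200 bp held 17 Th1 reads and 2 Th2 reads, 6.30-fold (1.50 to 56.2), and naive cells held 6 and the input 1. Th1 cells were thus higher in both states at this region. The region chr5:111486201-111486600 had the same 41 reads in stimulated Th1, against 6 in stimulated Th2, a 7.43-fold difference (3.14 to 21.4), and no read in either resting library. The input held 4 reads there, and with no resting read the resting pair gave no ratio.

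At chr2:93308801-93309000 stimulated Th1 had 14 reads and stimulated Th2 none. With a floor of 3 reads for the empty library this is 5.08-fold, and the interval used for ranking has a 95% lower limit of 3.61. The region chr18:32703001-32703200 had 13 reads against none, 4.71-fold on the same floor with an interval limit of 3.32. Stimulated Th17 cells held 2.28 RPM there, against 3.32 in stimulated Th1. At chr10:66512001-66512200 stimulated Th1 had 20 reads and stimulated Th2 had 1, with 5.11 RPM in stimulated Th1 and 2.79 in Th17. Th17 was below stimulated Th1 at both sites, but these were picked for high stimulated Th1 reads. The share of reads inside all regions was also lower in Th17, 7.23% against 12.6% in stimulated Th1. The chr11:116298001-116298200 region had 17 reads against 1, and Th17 had 1.9 RPM against 4.34 in Th1. At chr9:61533201-61533400 the counts were again 17 and 1, and Th17 had 0.253 RPM. At chr6:91610201-91610400 the pair held 19 reads and 1, and the resting Th1 and Th2 libraries 5 and 1. At chr15:60655401-60655600 the stimulated counts were 21 and 2. The last of the 10, chr9:95308201-95308400, had 25 and 3, 9.07-fold (2.77 to 46.9). Outside chr17:74218801-74219000 and chr6:91610201-91610400, no region of the 10 held more than 2 reads in resting Th1.

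Among the 10 regions highest in stimulated Th2, 7 had no read in stimulated Th1. The first, chr11:35334801-35335000, had 26 reads in stimulated Th2, 7.97-fold higher on the floor of 3 reads, with an interval limit of 6.03. It had no read in naive or either resting library, and stimulated Th17 held 4.81 RPM against 6.10 in stimulated Th2. At chr12:15723201-15723400 the stimulated Th2 count was again 26 against 0, but here resting Th2 held 6 reads, resting Th1 1 and Th17 0.127 RPM. Equal counts in stimulated Th2 thus stood beside different counts at rest and in Th17. The region chr7:91317001-91317200 held 22 reads in stimulated Th2, none in stimulated Th1 and none at rest. At chr16:91036201-91036400 there were 21 against 0, and at rest 9 Th2 reads against 2 Th1 reads.

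The remaining 6 regions of the Th2 group all held resting Th2 reads, from 1 to 15. At chr16:44943601-44944000 stimulated Th2 held 31 reads and stimulated Th1 1, 28.5-fold (4.75 to 1161), and resting Th2 held 9 against 0. At chr14:74301801-74302400 the stimulated counts were 29 and 1, 26.7-fold (4.42 to 1089), and the resting counts 15 and 4. The region chr16:50299001-50299400 had 28 reads against 1, 25.7-fold (4.26 to 1052), and 11 against 2 at rest. These 3 regions were 400 to 600 bp wide, and Th2 exceeded Th1 in both states. Fewer resting reads stood at the others: chr7:13894801-13895000 and chr10:94585401-94585600 each held 19 reads against 0 after stimulation and 1 against 0 at rest, and stimulated Th17 held 0.253 and 2.28 RPM. At chr1:145383601-145383800 the counts were 18 against 0, and 2 against 0 at rest.

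**Figure D2:**
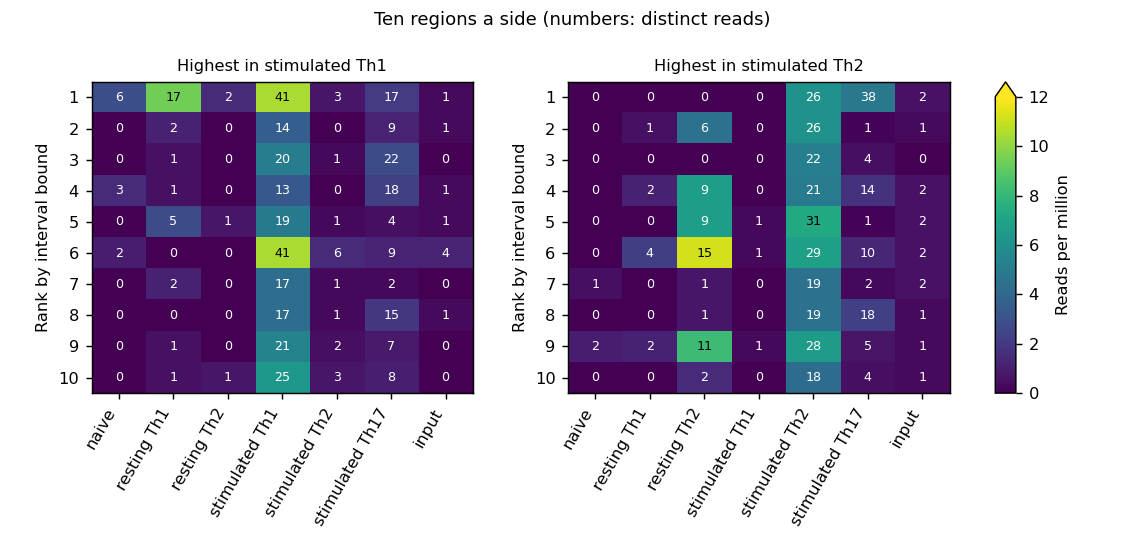
Rows are the 10 regions highest in stimulated Th1 (left) and in stimulated Th2 (right), in order of rank, and columns are the 7 libraries. Colour is RPM and the printed numbers are distinct reads, with 41 and 3 in the first Th1 region and 0 and 26 in the first Th2 region.

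The called regions with the most reads had smaller folds. In the Th1 set, chr5:124528401-124529400 held 63 stimulated Th1 reads against 19 for Th2, 3.61-fold (2.13 to 6.38), while the resting counts were 9 and 6. In the Th2 set, chr7:123637401-123637800 held 65 stimulated Th2 reads against 16 for Th1, 3.73-fold (2.14 to 6.92), while the resting libraries held 2 and 0. At chr5:66584401-66585000 the stimulated Th2 and Th1 counts were 58 and 11, 4.85-fold (2.52 to 10.2). Its resting counts were 23 for Th2 and 3 for Th1, and the input held no read. In the Th1 set, chr2:158544801-158545200 and chr9:32326001-32326400 held 53 and 52 stimulated Th1 reads, against 17 each for Th2. In the Th2 set, chr6:145929601-145930000 held 56 stimulated Th2 reads against 16 for Th1. The resting Th1 to Th2 ratios at these were 1.71 (0.781 to 4.01), 1.30 (0.508 to 3.57) and 0.185 (0.00376 to 1.87). Of the regions in this paragraph, only chr5:66584401-66585000 had a resting interval that left out 1.

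The resting libraries were not used in the ratios that chose the sets, though they helped to define the regions, and they measure the same lineages again in other libraries. Of regions with a resting read, most of the Th2 set were higher in resting Th2 and most of the Th1 set in resting Th1. In summed reads the lean was smaller for the Th1 set. Of 680 Th2-set regions with any resting read, 104 (15.3%, 12.7% to 18.2%) had a higher RPM in resting Th1, against 42.0% of all regions compared. In the Th1 set the share was 282 of 443 (63.7%, 59.0% to 68.1%). Summed over the Th2 set, resting Th2 exceeded resting Th1 by 3.19-fold (2.99 to 3.41). Summed over the Th1 set, resting Th1 exceeded resting Th2 by 1.48-fold (1.36 to 1.61). Over all regions compared, resting Th2 exceeded resting Th1 by 1.14-fold (1.13 to 1.15). No resting read was present in 124 regions of the Th1 set and 142 of the Th2 set. Where only regions found in the 2 stimulated libraries were used, the shares with more resting Th1 reads were 62.6% in the Th1 set and 17.1% in the Th2 set.

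Few regions met the full call in both states. At rest, 241 of 11030 regions (2.18%) were called higher in Th1 and 552 (5.0%) higher in Th2. In 10313 regions compared in both states, 68 were called for Th2 in both, which is 46.6% of the 146 stimulated calls and 13.4% of the 506 resting calls there. Only 11 were called for Th1 in both, 12.8% of 86 stimulated and 5.29% of 208 resting calls. Regions found only in a resting library could enter these counts. Among regions found in the stimulated pair alone, with at least 10 resting reads, 26 of 64 stimulated Th2 calls were also called for resting Th2. Of all 6395 such regions 220 were called for resting Th2. For Th1 the counts were 8 of 49, and 102 of all 6395. Among the 11 was chr9:42646401-42646800, with 12 reads against 1 after stimulation and 20 against 1 at rest. Among the 68 was chr2:48790601-48791000, with 20 Th2 reads against 5 after stimulation and 17 against 1 at rest. Both examples were picked after their values were seen, for their resting ratios.

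Levels in the other libraries differed between the sets. To keep the resting and naive libraries out of the choice of regions, these levels are given for the 508 Th1-set and 672 Th2-set regions found in the stimulated pair alone. In naive cells the Th1 set held 0.880 RPM per region, 2.94 times the input (2.64 to 3.28). The Th2 set held 0.246 in naive cells, 0.697 times the input (0.612 to 0.791), and 69.2% of its regions had no naive read. Regions called for neither cell type with fewer than 50 reads in the pair held 1.23 in naive cells, 2.04 times the input. Thus naive reads were above the input at regions higher in stimulated Th1, and below it at regions higher in stimulated Th2.

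In the Th2 set Th1 cells held 0.617 at rest and 0.791 after stimulation, and Th2 cells 1.93 and 4.18. In the Th1 set Th1 cells held 1.28 at rest and 4.45 after stimulation, and Th2 cells 0.887 and 1.06. Stimulated Th17 cells held 1.71 in the Th1 set and 1.07 in the Th2 set, between the pair whose gap had chosen the sets. In regions called for neither with fewer than 50 reads Th17 held 1.94, against 3.59 in stimulated Th1 and 3.38 in stimulated Th2. The naive library had the most repeated reads (41.4%) and the fewest regions at equal depth (3139), and the part of this in its levels was not tested.

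**Figure D3:**
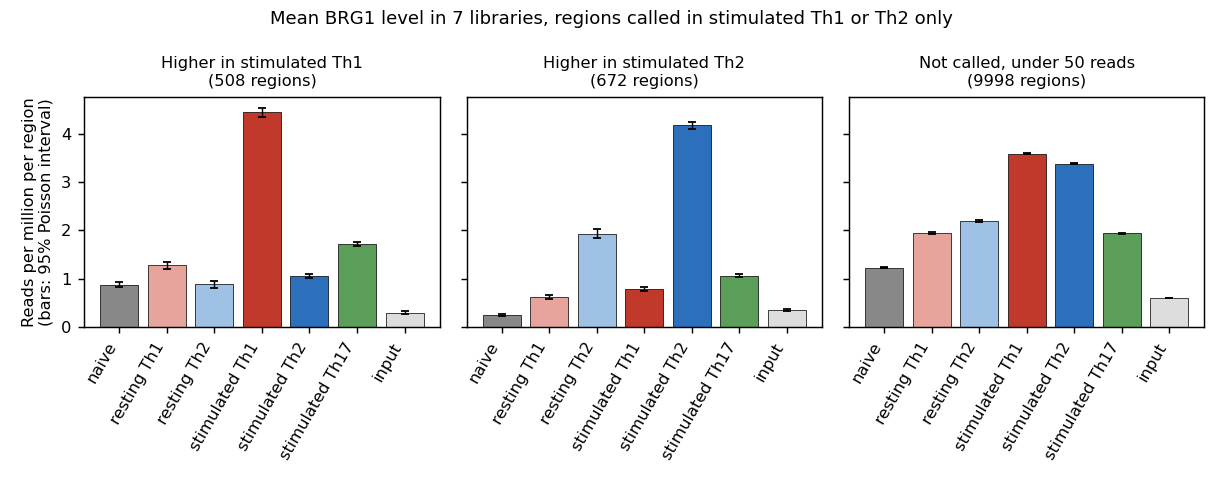
Bars give mean RPM per region with 95% Poisson intervals in 7 libraries, for regions found in the 2 stimulated libraries alone: higher in Th1, higher in Th2, and called for neither with fewer than 50 reads. Naive reads are at 0.880 in the first panel and 0.246 in the second, and resting Th2 is at 1.93 in the second.

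The differences were not confined to the called windows. Reads lying 200 to 1000 bp outside the called regions, and outside every other region, did not enter the calls. Beside Th2-set regions stimulated Th2 held 1.87-fold (1.81 to 1.93) more of them than stimulated Th1, and beside Th1-set regions stimulated Th1 held 1.31-fold (1.28 to 1.35) more. Beside regions called for neither with fewer than 50 reads the Th1 to Th2 ratio was 1.06 (1.06 to 1.07). At 1000 to 5000 bp the differences were 1.49-fold (1.47 to 1.52) for Th2 and 1.25-fold (1.23 to 1.27) for Th1. In the resting pair, the flanks of Th2-set regions at 200 to 1000 bp held 2.01-fold (1.90 to 2.13) more Th2 reads. The flanks of Th1-set regions had a resting Th1 to Th2 ratio of 1.01 (0.949 to 1.07), against 0.872 (0.863 to 0.881) beside regions called for neither. Flank reads thus differed in both states beside the Th2 set. Beside the Th1 set the resting ratio also lay above that beside regions called for neither.

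**Figure D4:**
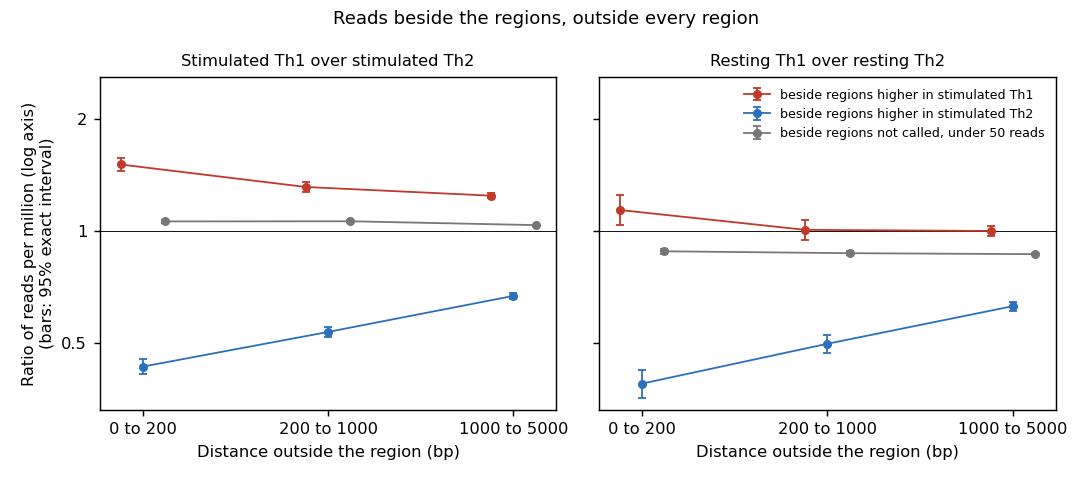
Points give the ratio of Th1 to Th2 RPM (log y axis, 95% exact intervals) at 3 distances outside regions higher in Th1, higher in Th2, and called for neither, in the stimulated pair (left) and the resting pair (right). Beside the Th2 set the ratio at 200 to 1000 bp is 0.535 in the stimulated and 0.497 in the resting pair.

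Most called regions stood alone, 82.0% in the Th1 set and 76.8% in the Th2 set, but a same-side region within 50 kb was more common than an opposite one. Another region of the Th1 set lay within 50 kb of 18.0% of Th1-set regions, while a Th2-set region lay that near to 5.11% of them. For the Th2 set the shares were 23.2% for its own kind and 3.77% for the other. Among regions called for neither, 9.66% had a Th1-set region and 8.91% a Th2-set region within 50 kb. Joined over gaps of up to 50 kb, 3 or more regions formed 12 clusters in the Th1 set (38 regions, at most 4 in a cluster) and 19 in the Th2 set (63 regions, at most 5).

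The largest Th2 cluster, chr17:87252201-87305800, spans 53.6 kb and had 5 called regions among 6 compared. Their stimulated Th2 and Th1 counts were 17 and 4, 15 and 1, 16 and 2, 14 and 0, and 10 and 0. The sixth region, chr17:87303001-87304000, had 61 and 36 and was not called. All 6 thus had more Th2 reads. Over the whole span stimulated Th2 held 128 RPM and stimulated Th1 38.8, and the input 36.2. At rest the values were 133 for Th2 and 27.7 for Th1. Outside the called regions the stimulated ratio of Th1 to Th2 in the span was 0.334 (0.275 to 0.403). Stimulated Th1 and naive cells, at 38.8 and 23.7 RPM, stood near or below the input along this stretch.

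The cluster at chr11:53418801-53470600 had 4 called regions among 6, with stimulated Th2 and Th1 counts of 40 and 10, 17 and 2, 28 and 5, and 26 and 7. The other 2 regions held 63 and 71, and 26 and 34, so higher and similar regions alternated within 51.8 kb. The called regions held 35 resting Th2 reads and 13 resting Th1 reads, 3.63-fold (1.88 to 7.48). In the cluster at chr9:114331201-114397000, 4 of 11 regions were called, with counts of 22 and 6, 11 and 1, 13 and 3, and 11 and 2. Their resting counts were 2 for Th2 and 1 for Th1 in all, too few to read a resting difference.

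On the Th1 side, the cluster at chr17:74218801-74268600 held the leading Th1 region and 2 more, and all 3 regions compared there were called. Over its 49.8 kb stimulated Th1 held 64.1 RPM and stimulated Th2 24.2. Resting Th1 held 60.8, resting Th2 23.1 and the input 28.3. Outside the called regions the stimulated ratio was 2.05 (1.58 to 2.66). At chr9:44866801-44887400 all 4 regions compared were called, with 83 stimulated Th1 reads against 23 in all, and 13 against 1 at rest. At chr11:46157401-46210600, by contrast, 4 of 9 regions were called, and outside them the stimulated ratio was 1.05 (0.943 to 1.16). No Th1 difference was thus detected there outside the called windows.

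Counting in fixed 50 kb bins, a step added after the flanks had been seen, showed some wide stretches with more reads in stimulated Th2. Of 38128 bins with at least 50 reads in the pair, 735 (1.93%) had at least 2-fold more Th2 reads with an interval leaving out 1, and 126 (0.330%) had at least 2-fold more Th1 reads. Dividing by the median ratio of the regions gave 1190 and 53 bins. No region compared lay in 526 of the 735 and 104 of the 126, against 27266 of all 38128 bins. The 735 were thus close to all bins in this share. In the resting libraries, not used for this choice, Th2 exceeded Th1 by 1.65-fold (1.62 to 1.68) over the 735 bins, with more Th2 reads in 77.0% of them. Th1 exceeded Th2 by 1.41-fold (1.34 to 1.49) over the 126, with more Th1 reads in 81.7%. Over all bins 55.9% had more resting Th1 reads.

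In most of these bins the lower library was below the input. The 735 bins held on average 30.0 RPM in stimulated Th2, 12.3 in stimulated Th1 and 21.9 in the input, with 28.9 in resting Th2, 17.5 in resting Th1 and 17.4 in naive cells. The 126 bins held 19.7 for stimulated Th1, 9.13 for stimulated Th2 and 17.6 for the input. Stimulated Th1 was below the input in 95.1% of the 735 bins, and stimulated Th2 was above it in 59.2%. In the 126 bins stimulated Th2 was below the input in 93.7%, and stimulated Th1 above it in 30.2%. Over all 38128 bins, each stimulated library averaged 24.7 RPM against 22.75 for the input. The bins were chosen for a gap between the stimulated libraries, so a low level in the lower library was partly set by that choice. The matching shares among all bins are not given here.

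The bins higher in Th2 formed 106 runs of at least 2 neighbours, which hold 304 of the 735 bins, while 431 stood alone. The longest, chr9:81450001-82000000, joined 11 bins over 550 kb. It held 1591 stimulated Th2 reads against 435 for Th1, 3.36-fold (3.02 to 3.75), and at rest 552 Th2 and 300 Th1 reads, 2.48-fold (2.15 to 2.87). In RPM this was 373 for Th2 and 111 for Th1 after stimulation, 412 and 166 at rest, 196 in naive cells, 65.1 in stimulated Th17 and 247 in the input. Both Th2 libraries were above the input and the other 4 BRG1 libraries below it. The next run, chr2:83900001-84250000, was 350 kb long, with 1155 reads against 386, 2.75-fold (2.45 to 3.09), and 1.71-fold (1.43 to 2.04) at rest.

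Taken bin by bin, chr11:105250001-105300000 had the highest bound for Th2, with 272 reads against 47, 5.32-fold (3.89 to 7.41), and 3.23-fold (1.95 to 5.50) at rest. It did not stand alone: its neighbour chr11:105300001-105350000 was also higher in stimulated Th2, 4.31-fold (3.425 to 5.474). At chr16:50250001-50300000, which contains the region chr16:50299001-50299400, stimulated Th2 held 515 reads and stimulated Th1 122, and resting Th2 177 and resting Th1 54. Its 120.8 RPM in stimulated Th2 compare with 36.5 in the input. The Th1 bins formed no run longer than 100 kb. The first by its bound, chr12:117800001-117850000, held 104 reads against 37, 3.06-fold (2.08 to 4.58), and 1.13-fold (0.592 to 2.23) at rest. The bin chr17:74200001-74250000, around the leading Th1 region, is part of a 100 kb run. Its counts were 239 and 107, 2.43-fold (1.93 to 3.08), and 71 and 24 at rest, 2.19-fold (1.36 to 3.64).

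**Figure D5:**
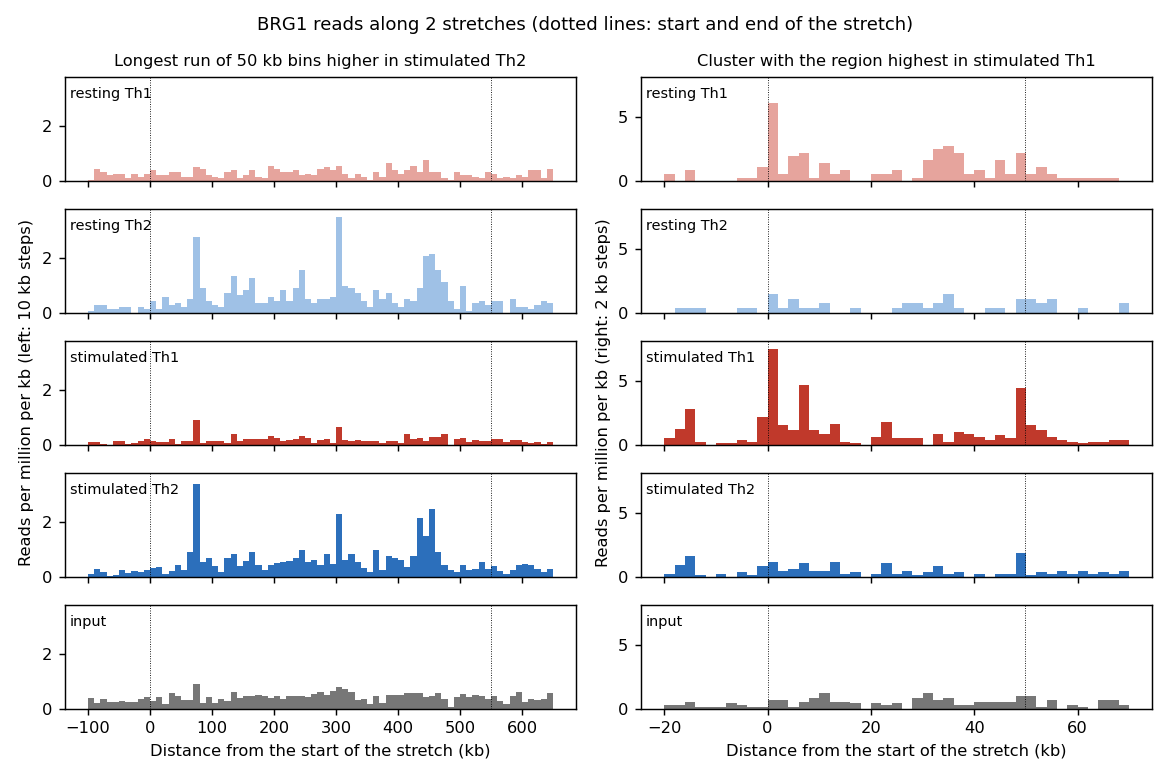
RPM per kb in 5 libraries along the 550 kb run higher in stimulated Th2 (left, 10 kb steps) and along the 49.8 kb cluster higher in stimulated Th1 (right, 2 kb steps), with each column on 1 y scale. On the left, stimulated Th2 is above the input in 36 of 55 steps, resting Th2 in 34 and stimulated Th1 in 1, and on the right both Th1 libraries are high in some steps.

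The ratio of stimulated Th1 to stimulated Th2 RPM over whole chromosomes ran from 0.921 on X to 1.05 on chromosome 5. The share of regions higher in Th2 ran from 1.83% on chromosome 19 to 5.37% on chromosome 1, and that of regions higher in Th1 from 1.3% on chromosome 18 to 3.56% on X.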

How the data were processed

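BRG1 ChIP-seq was compared between 1 library of stimulated Th1 cells and 1 of stimulated Th2 cells, with 1 input library as background and the 4 other BRG1 libraries beside them. The authors deposited 1 list of aligned 34-base reads per library, with a score column that holds 0 on every line and was not used as a measurement. Per the submitters' processing notes the genome build was mm9, and the aligner is not given in the sources used here. Per the labels' protocols, chromatin was fixed with formaldehyde, cut with MNase and sonication, precipitated with the J1 antibody, amplified over 18 cycles, selected at 250 to 300 bases and sequenced on a Genome Analyzer II.

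From the reads, repeats of a chromosome, 5′ end and strand were reduced to 1, chromosome Y was dropped, and ends were moved 75 bp towards the fragment centre. Each BRG1 library was thinned to 1340208 reads, and 200 bp windows above the local input (Poisson tail 1e-05, the highest rate of the genome, 1 kb, 5 kb and 10 kb) were joined over gaps of 1 window and merged over the 6 libraries into 26506 regions. All distinct reads were then counted, as reads per 1000000 distinct reads (RPM). Ratios have 95% exact conditional binomial intervals, shares 95% exact Clopper-Pearson intervals and mean levels 95% Poisson intervals. No interval was corrected for the number of regions or bins compared. Where a library had 0 reads, a fold on a floor of 3 reads was given beside the interval limit. Steps were tested on simulated data, with Python 3.11.15, NumPy 2.4.6, SciPy 1.17.1 and Matplotlib 3.10.9. The text names the 10 regions a side with the highest bound, 3 clusters a side (most regions first, ties by span), the first of the bins and runs, and others where it says why.

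The comparison, its sets and its lists were chosen with earlier results of these data known. Gene loci, promoters and motifs had been planned and were not analysed here, since no mm9 annotation or genome was used, so no sequence is printed.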

Additional observations from a re-analysis of the deposited data

Results flagged for a closer look

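In 3 of the 10313 regions compared in both states, the 3-fold call was for 1 cell type at rest and for the other after stimulation. Of the 10313, 208 were called for resting Th1 and 506 for resting Th2. At chr6:108618401-108618600 stimulated Th1 held 21 reads and stimulated Th2 6, while resting Th1 held 2 and resting Th2 9. At chr9:71679601-71680000 the stimulated Th1 and Th2 counts were 17 and 6, and the resting counts 4 and 11. At chr2:32493601-32493800 stimulated Th1 held 2 reads and stimulated Th2 12, while resting Th1 held 28 and resting Th2 5. The change of side was not tested, since each group has 1 library. These 3 stand beside 79 regions called for the same cell type in both states, 11 for Th1 and 68 for Th2.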

How the results depend on the processing

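Of 16 alternative settings, the number of regions higher in Th1 stayed within 1.5 times 567 under 9 and the number higher in Th2 within 1.5 times 822 under 10. The others gave, for Th1 and Th2, 1243 and 2684 with all reads kept, 296 and 433 with a stricter Poisson tail, 241 and 340 with a minimum of 20 reads, and 1097 and 1121 with a fold of at least 2. Calling regions on 50% of the reads and counting the other 50% gave 177 and 131, which uses fewer reads. Alternatives chosen after seeing the data gave 289 and 179 with both libraries thinned to the depth of resting Th2, and 336 and 540 with only regions that hold an input read. The larger side changed under the 50% split and the thinning, and the cause was not tested.

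With at least 10 resting reads, the share with more resting Th1 reads was 77.9% of the Th1 set (67 of 86) and 8.22% of the Th2 set (12 of 146). Over all regions compared this share was 43.3%. In regions found in the stimulated pair alone, an alternative added later, it was 85.7% (42 of 49) and 10.9% (7 of 64). The 50 kb bins and their alternatives were also added later. Bins higher in Th1 numbered 200 with all reads kept, and 53 when divided by the median ratio of regions, which gave 1190 for Th2. Borders moved by 25 kb, reads inside regions left out and the median ratio of bins gave 122 to 132 bins for Th1 and 709 to 720 for Th2.

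The 20 leading regions, recomputed under 10 settings, kept their call in 166 of 200 cases, lost it in 34 and reversed in 0. This total is no measure of stability, since the regions were picked on these same reads and a fold of at least 2 could lose none. Under the settings that counted only part of both libraries, 3 of 20 kept their call in the thinning and 11 of 20 in the 50% split. Of the lost calls, 17 came from the thinning, 9 from the 50% split, 7 from the minimum of 20 reads and 1 from the longer shift of read ends. No paired analysis was possible because each group has 1 library. The alternatives for gene loci, promoters and motifs were not run, since no mm9 annotation or genome was used here. Depth limits single regions, which held a median of 16 reads in each library of the pair.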
